A study of Mus musculus with 2 samples.

Results

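The nuclear-encoded genes of the mitochondrial respiratory chain and ATP synthase were described in medullary thymic epithelial cells (mTECs), thymic stromal cells that express genes otherwise restricted to other organs and present the products to maturing T cells. Members were all gene rows whose symbol begins with Nduf, Uqcr, Sdha, Sdhb, Sdhc, Sdhd or Atp5, or with Cox followed by a digit from 4 to 8. This gave 94 of 23997 gene rows: 43 of complex I, 6 of complex II, 8 of complex III, 20 of complex IV and 17 of complex V. Ndufa4 was placed in complex IV, where its protein is now known to sit, and Ndufa4l2 was placed there with it as its related form. Gene expression had been measured in 2 libraries of poly-A-selected RNA from mTECs with high surface MHC class II, sorted from pooled C57BL/6 mice. The labels name the first WT and the other Aire-KO, of genotype Aire-/-. Aire, a transcriptional regulator of these cells, promotes much of that expression. How many mice were pooled, of what age and sex, and which allele was targeted is not stated in the labels.

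Each genotype is a single library, so no difference has a replicate check. Paired values below give the library labelled WT first and the library labelled Aire-KO second. Levels are in FPKM, sequenced fragments scaled by transcript length and by library size, so genes of different length can be compared. The Aire transcript stood at 220.6 and 640.2 FPKM, higher in the library labelled Aire-KO, and a whole-gene level cannot isolate a deleted part. Low values fell on regular steps that imply about 47400000 and 54300000 fragments. Of 18 genes listed as markers of thymic epithelial cells, 16 had a level, with MHC class II genes, keratins and Epcam abundant in both libraries. The list also holds Psmb11 (2.05 and 1.52 FPKM) and Ly75 (9.17 and 8.01 FPKM), which are known from cortical and not medullary epithelium. Transcripts of other cells summed to less in the library labelled Aire-KO: 37.5 and 22.0 FPKM for 12 thymocyte genes, 772.9 and 452.7 FPKM for 9 myeloid and dendritic genes, and 36.8 and 27.5 FPKM for 8 fibroblast and endothelial genes. Lyz2, named after its value was seen, alone made up 675.5 and 436.4 FPKM of the myeloid sum. For 5 red cell genes the sums were 42.7 and 25.5 FPKM. No gene of these 4 lists was listed at 0 in either library, and their part in the results below was not tested.

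Complexes I and II pass electrons from NADH and succinate to ubiquinone, complex III passes them to cytochrome c, and complex IV passes them to oxygen. Complexes I, III and IV pump protons across the inner mitochondrial membrane, and complex V, the ATP synthase, lets them flow back to make ATP. The catalytic centres of complexes I, III and IV are partly encoded by mitochondrial DNA. The genes described here supply other subunits and several assembly factors. The symbol rule leaves out some nuclear-encoded chain genes, such as Cyc1 of complex III (182 and 197 FPKM), named after its value was seen. Some complex IV subunits exist in a common form and in a second form known from heart and skeletal muscle, lung or testis, or induced by low oxygen.

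The respiratory chain genes were among the most abundant transcripts of both libraries and most stood at nearly the same level in each. Of the 94 genes, 90 had a mean of 0.5 FPKM or more. The median member of these 90 lay at percentile 96.6 of all genes in the library labelled WT and at percentile 96.1 in the library labelled Aire-KO. Together the 90 made up 4.03% and 4.0% of the FPKM sum. The 5 most abundant were Cox4i1 at 1236 and 1612 FPKM, Atp5e at 1256 and 1580 FPKM, Cox6b1 at 1029 and 1003 FPKM, Atp5b at 891.6 and 1073 FPKM, and Cox8a at 1119.9 and 844.7 FPKM. Across the 90 genes the log2 levels of the 2 libraries had a Pearson r of 0.98 and a Spearman rho of 0.98, a description across genes that share both libraries and are not independent replicates.

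A gene was called higher or lower at a 2-fold difference in (Aire-KO FPKM + 0.1)/(WT FPKM + 0.1), which sets a size and tests nothing. By this rule 3 of the 90 members were higher, 3 were lower and 84 were neither. Over all 15901 genes at the same minimum, 27.6% were called, 7.09% higher and 20.5% lower. The median log2 ratio of the members was 0.10, with quartiles of -0.11 and 0.25, against a median of 0.05 and quartiles of -0.68 and 0.47 over all genes. A difference under 1.5-fold was found in 80 of the 90 members (88.9%) and in 53.9% of all genes. The other 10 members, 6 higher and 4 lower, differed by 1.5-fold or more, as did 46.1% of all genes. Since the members are abundant, the same was counted at a mean of 20 FPKM or more. There, 95.9% of 73 members and 64.2% of 4411 genes lay within 1.5-fold. Of these members 1 was higher and none lower, and of these genes 308 were higher and 414 lower. In bulk RNA of sorted cells, fewer cells of a type and less RNA per cell cannot be told apart.

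**Figure D1:**
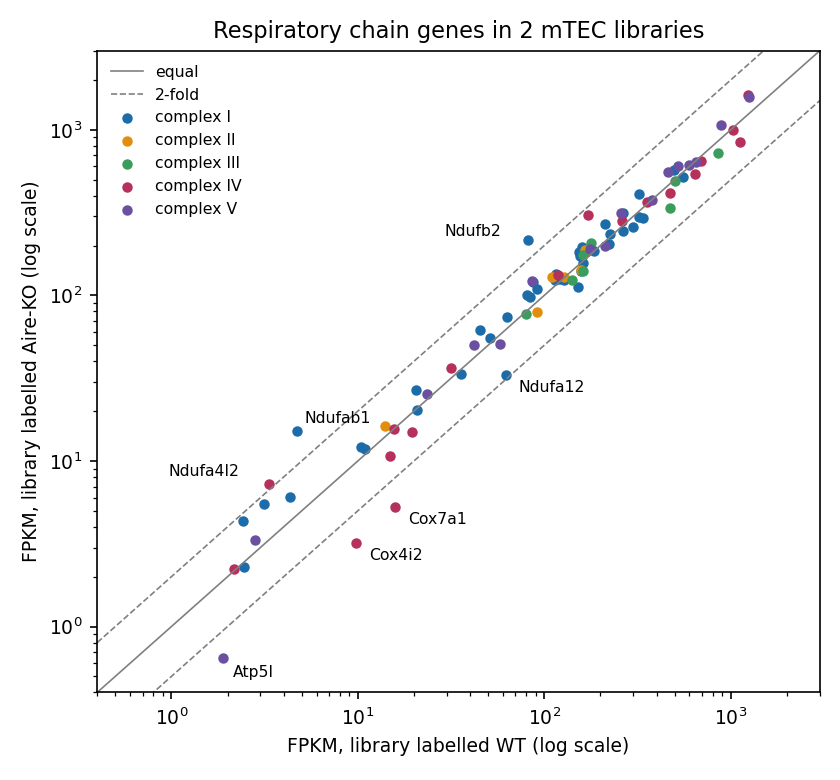
Level of each respiratory chain gene with a mean of 0.5 FPKM or more (90 points, coloured by complex) in the library labelled WT (x axis, FPKM, log scale) and the library labelled Aire-KO (y axis, FPKM, log scale). The solid line marks equal levels and the dashed lines a 2-fold difference; 84 genes lie between the dashed lines, and the 6 called genes and Ndufa12 are named.

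The 6 called genes had different roles. Ndufab1, the mitochondrial acyl carrier protein that is also a subunit of complex I, stood at 4.69 and 15.1 FPKM (log2 ratio 1.67). Ndufb2 is an accessory subunit in the membrane arm of complex I (chromosome 6, 39592565 to 39599843). Its level was 81.8 and 214.5 FPKM (log2 ratio 1.39). It was the only called member with a mean of 20 FPKM or more. Ndufa4l2, the form of Ndufa4 that is induced by low oxygen, stood at 3.32 and 7.23 FPKM (log2 ratio 1.10). Lower in the library labelled Aire-KO was Cox4i2, the second form of complex IV subunit 4, at 9.80 and 3.18 FPKM (log2 ratio -1.59). Cox7a1, the muscle form of subunit 7a, stood at 15.8 and 5.26 FPKM (log2 ratio -1.57). Atp5l, the g subunit in the membrane part of the ATP synthase, stood at 1.89 and 0.646 FPKM (log2 ratio -1.41). Thus 3 of the 6 were second forms of complex IV subunits, and another 2, Ndufab1 and Atp5l, have near-identical copies elsewhere in the genome that are described below. The members nearest to the threshold without reaching it were Ndufa12 (62.2 and 32.8 FPKM, log2 ratio -0.92), Cox7a2l (171.1 and 304.0 FPKM, 0.83), Ndufaf6 (2.41 and 4.35 FPKM, 0.83) and Ndufaf4 (3.13 and 5.53 FPKM, 0.80).

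Complex I had 42 of 43 members with a measured level, of which 2 were higher and none lower, with a median log2 ratio of 0.15. The 7 nuclear-encoded core subunits, which carry the flavin and the iron-sulphur clusters, had a median of 0.14 and none was called. Ndufv1, which binds NADH, stood at 80.4 and 100.5 FPKM, and its partner Ndufv2 at 87.0 and 119.9 FPKM. Ndufs1, the largest core subunit, stood at 35.9 and 33.6 FPKM. Of the 29 accessory subunits 28 were measured, with a median of 0.10, and 17 of them had a ratio above 0. Ndufb4 stood at 2.46 and 2.27 FPKM, and the core subunit Ndufs3 at 20.8 and 20.4 FPKM, both low for their class and both with copied sequence, described below. The most abundant accessory subunits were Ndufa3 at 555.3 and 515.0 FPKM and Ndufc2 at 498.7 and 573.3 FPKM. The 7 assembly factors, which help to build the complex without staying in it, all had ratios above 0, with log2 values from 0.10 to 0.83 and a median of 0.38, and none was called. They ranged from 2.41 FPKM for Ndufaf6 to 50.9 FPKM for Ndufaf3 in the library labelled WT. Over all 15901 genes, 8477 had a ratio above 0, and ratios also moved with transcript length, as described below.

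Complex II, which is also the succinate dehydrogenase of the citric acid cycle, is wholly nuclear-encoded. Its 4 subunits were close in level between the libraries, and Sdha was the lowest of them in both. The flavoprotein gene Sdha stood at 91.1 and 79.7 FPKM, the iron-sulphur protein gene Sdhb at 165.2 and 188.6 FPKM, and the membrane anchors Sdhc and Sdhd at 157.9 and 143.2 FPKM and at 127.1 and 129.3 FPKM. The assembly factors Sdhaf1 and Sdhaf2 had log2 ratios of 0.22 and 0.21.

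Complex III was the only complex besides IV with a median below 0, at -0.11 over 8 genes, and none was called. The 5 accessory subunits all had ratios below 0, from -0.48 to -0.04. The lowest was Uqcr10 at 469.2 and 336.4 FPKM. Uqcrh, the hinge protein near the cytochrome c site, was the most abundant at 851.5 and 721.5 FPKM. The core proteins Uqcrc1 and Uqcrc2 stood at 177.4 and 206.5 FPKM and at 160.4 and 175.8 FPKM. The Rieske iron-sulphur protein gene Uqcrfs1 stood at 140.0 and 123.4 FPKM. A ratio below 0 was found in 7423 of all 15901 genes, and ratios moved with transcript length, as described below.

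Complex V had 16 of 17 members measured, with a median of 0.17, and 1 was lower. All 5 genes of the F1 part, which makes ATP, had ratios above 0, with a median of 0.28. Of all 15901 genes, 8477 had a ratio above 0. The catalytic beta subunit gene Atp5b and the alpha subunit gene Atp5a1 had log2 ratios of 0.27 and 0.29, at 891.6 and 1073 FPKM and at 458.0 and 559.0 FPKM. The 3 genes Atp5g1, Atp5g2 and Atp5g3 encode the same mature c subunit of the membrane ring. Atp5g3 was by far the most abundant at 593.4 and 612.5 FPKM, Atp5g1 stood at 57.8 and 50.7 FPKM, and Atp5g2 was listed at 0 in both libraries. In the peripheral stalk, which holds the 2 parts together, Atp5f1 stood at 86.2 and 122.2 FPKM and Atp5o at 175.0 and 191.5 FPKM. Of the small membrane subunits, Atp5j2 and Atp5k stood at 521.0 and 604.4 FPKM and at 651.6 and 639.5 FPKM, far above their neighbour in the complex, Atp5l. Atp5s and Atp5sl carry the name without being subunits, and had log2 ratios of 0.24 and 0.12.

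**Figure D2:**
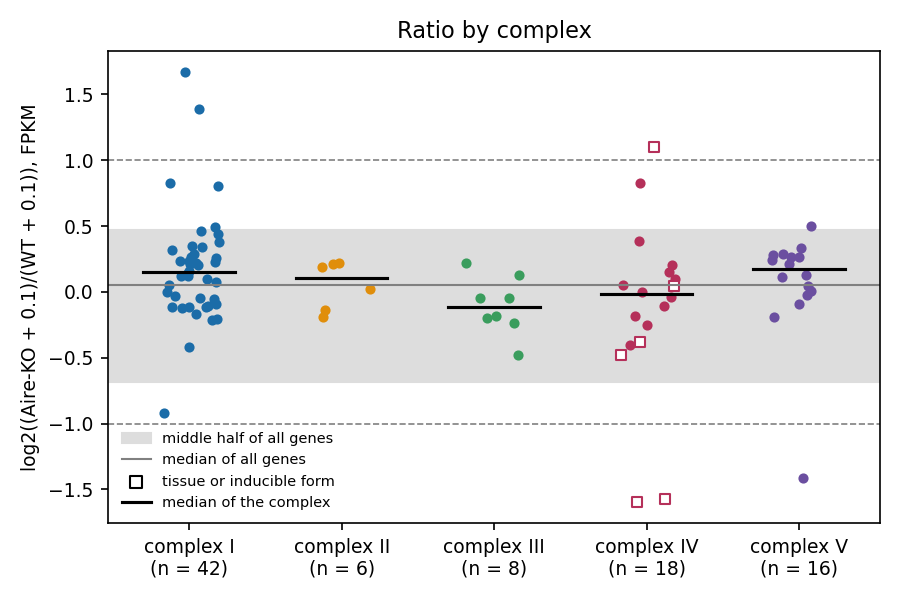
Log2 ratio of (Aire-KO FPKM + 0.1) to (WT FPKM + 0.1) for the 90 measured genes by complex (1 point a gene, open squares for the second forms of complex IV subunits, black bars for the median of each complex). The grey band spans the quartiles of all genes (-0.68 to 0.47), and beyond the dashed 2-fold lines lie 2 genes of complex I (Ndufab1 and Ndufb2), 3 second forms of complex IV (Ndufa4l2, Cox4i2 and Cox7a1) and 1 gene of complex V (Atp5l).

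Complex IV had 18 of 20 members measured, 1 higher and 2 lower, with a median of -0.02. Of its subunits with a single form, Cox5a stood at 261.5 and 280.2 FPKM and Cox6c at 470.2 and 414.6 FPKM. Cox5b and Cox7c were far lower, at 15.6 FPKM in both libraries and at 31.8 and 36.6 FPKM. Cox7a2l, known as a factor of supercomplexes of complexes III and IV, was the complex IV gene with the highest ratio among those not called.

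Within complex IV, 7 subunits occur in a common form and at least 1 second form. The common forms were at high and nearly equal levels in both libraries, from 118.7 to 1236 FPKM in the library labelled WT, and none of the 7 was called (median log2 ratio -0.04). The 8 second forms were at low levels, from 0 to 19.5 FPKM in that library. Of these, 6 passed the minimum, 1 was higher, 2 were lower, and the median was -0.43. With transcripts of 500 bp or more 4 second forms were left, and their median was -0.17. Set against the median of all genes of like transcript length and any level, the common forms had a median of 0.50. The second forms then had one of 0.05, so both changed sign. In every pair and in both libraries the common form was the more abundant.

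The 3 forms known from heart and skeletal muscle were Cox7a1, Cox8b and Cox6a2, and Cox7a1 was the only one called. It (chromosome 7, 30184171 to 30186030) made up 4.28% and 1.41% of the summed level of Cox7a1 and its common partner Cox7a2, while Cox7a2 itself stood at 354.4 and 367.8 FPKM. Cox8b stood at 14.9 and 10.7 FPKM, or 1.31% and 1.25% of its sum with Cox8a. Cox6a2 stood at 2.15 and 2.23 FPKM, or 0.333% and 0.409% of its sum with Cox6a1, which was at 643.9 and 541.9 FPKM. The share within a library does not depend on how the libraries are scaled to each other.

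Among the other second forms, Cox4i2 (chromosome 2, 152753916 to 152765039), known from lung and induced by low oxygen, made up 0.786% and 0.197% of its sum with Cox4i1. About 249 and 91 fragments lie behind its levels, and its log2 ratio without a pseudocount was -1.62 with a 95% counting interval of -1.99 to -1.27. Set against all genes of like length its log2 ratio was -0.99, short of 2-fold. Ndufa4l2 (chromosome 10, 127509274 to 127517154) went the other way, from 0.475% to 1.11% of its sum with Ndufa4, which was at 695.5 and 645.9 FPKM. About 117 and 288 fragments lie behind it, with a log2 ratio of 1.12 and an interval of 0.81 to 1.45. With a pseudocount of 1 FPKM its log2 ratio was 0.93, short of 2-fold. Both genes are known to respond to low oxygen, and here they had ratios of opposite sign. Of the testis forms, Cox6b2 stood at 19.5 and 14.99 FPKM, 1.86% and 1.47% of its sum with Cox6b1. Cox7b2 was at 0.179 FPKM in the WT-labelled library and listed at 0 in the other, and Cox8c was listed at 0 in both. Cytochrome c, the carrier between complexes III and IV, lies outside the rule. Its common gene Cycs stood at 0.940 and 1.62 FPKM with 30.3% of its transcript copied as described below, and its testis form Cyct at 0.182 FPKM and listed at 0.

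**Figure D3:**
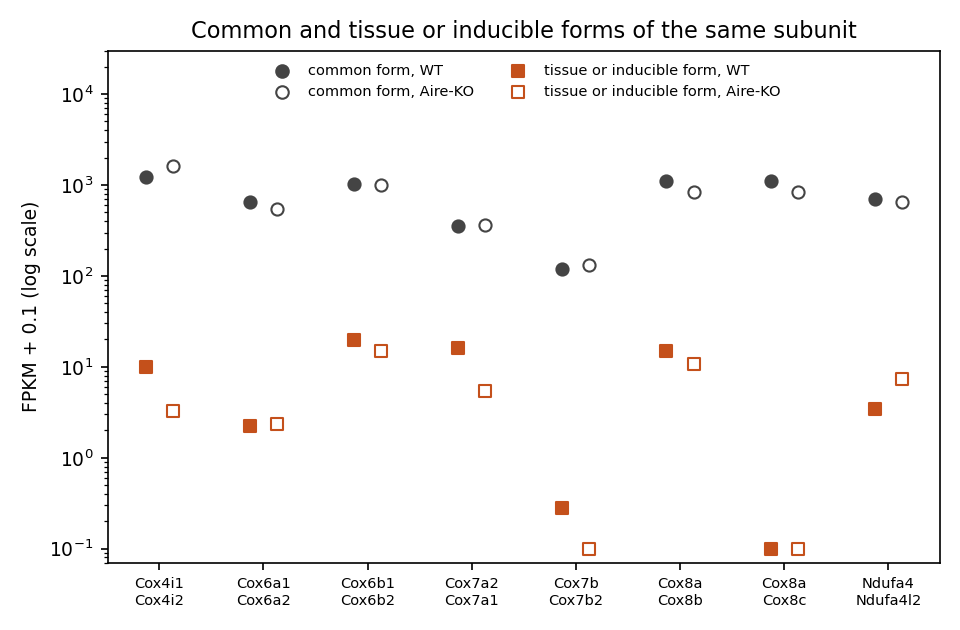
Levels (FPKM + 0.1, log scale) of the common form (circles) and the second form (squares) of 8 pairs of complex IV subunits in the library labelled WT (filled) and the library labelled Aire-KO (open). Common forms lie above 100 FPKM in both libraries and second forms below 20 FPKM; Cox4i2 and Cox7a1 are lower and Ndufa4l2 is higher in the library labelled Aire-KO, and Cox8c is listed at 0.

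Other genes known from muscle and testis were set beside these forms. Of 28 striated muscle genes 23 were measured, 13 lower and 4 higher, with a median log2 ratio of -1.14 and sums of 360.4 and 175.4 FPKM. Myl7, an atrial myosin light chain, stood at 122.8 and 29.0 FPKM, the slow troponin I gene Tnni1 at 33.7 and 2.70 FPKM, and the oxygen store gene Mb at 3.60 and 0.279 FPKM. Des and Pln were higher, at 20.9 and 43.4 FPKM and at 2.62 and 10.7 FPKM. Of 15 testis genes 8 were measured, 4 lower and none higher, with a median of -1.38, among them the sperm lactate dehydrogenase gene Ldhc at 4.59 FPKM and listed at 0. The testis genes summed to 43.8 and 24.96 FPKM. Of all genes 20.5% were lower, and of the 6 measured second forms 2 were. In the library labelled Aire-KO, Myl2 and Ckmt2 of the muscle genes were listed at 0, the latter below the minimum mean and named after its value was seen. The part of muscle or testis transcripts in the second forms' values was not tested. These lists were assembled with earlier results of the same libraries known, so their counts are a description.

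The genomic surroundings of 2 called forms limit their values. In the RefSeq annotation Cox4i2 overlaps Bcl2l1 by 6308 bases, and Bcl2l1 stood at 71.6 and 110.8 FPKM, the opposite direction. Ndufa4l2 overlaps Shmt2 by 32 bases, and Shmt2 stood at 20.6 and 45.9 FPKM, 2.23-fold higher beside 2.18-fold for Ndufa4l2. Each of these pairs shares 1 locus in the deposited table. Both neighbours were picked for their position after the values were seen. The libraries were made with a stranded kit, but whether counting used the strand is not stated in the labels, and the part of the neighbours in these values was not tested.

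The second forms share little sequence with the common forms. In GENCODE release M21 coding sequences, the 8 pairs were 51.7% to 65.1% identical over their alignment, and the longest run of identical bases was 28, for Ndufa4l2 and Ndufa4. Sequenced reads were 100 bases from each end, longer than any run shared within a pair.

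Low levels among the subunits that every cell uses went with copied sequence. A member was counted as copied where a stretch of 100 bases or more of its transcript matched, at 98% identity or more, an annotated transcript of a gene elsewhere in the genome. This held for 14 of the 94 members (14.9%) and for 6.70% of 15699 genes measured with a transcript. Leaving out second forms, assembly factors, the supercomplex factor Cox7a2l and genes that only carry the name, 74 members are subunits made in all tissues. Of these, all 6 with a mean under 20 FPKM had a copy, namely Atp5g2, Ndufs5, Atp5l, Ndufb4, Ndufab1 and Cox5b. Above that level 8 of 68 had a copy. This split was chosen after the values were seen. The 14 subunits with a copy had a median of 26.3 and 26.6 FPKM, and the other 60 a median of 211.6 and 210.5 FPKM. No subunit without a copy was below 33.6 FPKM in either library.

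**Figure D4:**
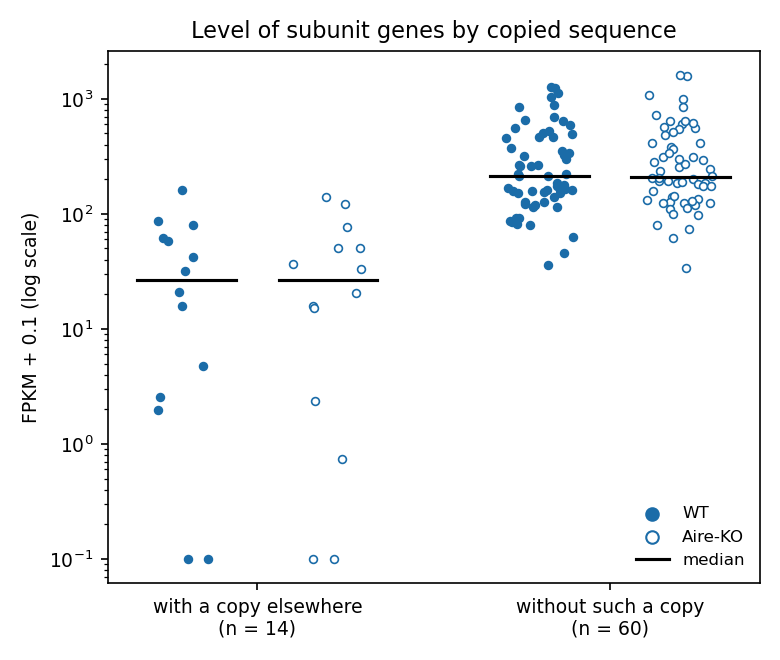
Levels (FPKM + 0.1, log scale) of 74 respiratory chain subunits made in all tissues, split into 14 with a near-identical copy elsewhere in the genome and 60 without, in the library labelled WT (filled) and the library labelled Aire-KO (open). Bars mark medians, 26.3 and 26.6 FPKM with a copy and 211.6 and 210.5 FPKM without; all values below 30 FPKM belong to genes with a copy.

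The copies are mostly processed pseudogenes, DNA copies of a spliced transcript, and 13 of the 14 nearest copies carry a pseudogene annotation. The subunits at the lowest levels are shown with the copy closest to each, because such stretches are the same or nearly the same in both. The first 90 coding bases of each gene are aligned with the same stretch of its copy, as read from the GENCODE M21 transcripts, and capitals mark a base that differs. For Atp5l and its copy on chromosome 11 (97768060 to 97768371, mm10; 312 bases at 99.4% identity) there is none.
Atp5l: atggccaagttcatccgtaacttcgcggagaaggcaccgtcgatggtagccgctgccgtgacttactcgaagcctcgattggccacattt
Atp5l2-ps: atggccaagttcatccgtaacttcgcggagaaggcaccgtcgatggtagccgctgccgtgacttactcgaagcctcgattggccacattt
For Atp5g2 and its copy on chromosome 7 (23946646 to 23947290; 645 bases at 100% identity) there is none either.
Atp5g2: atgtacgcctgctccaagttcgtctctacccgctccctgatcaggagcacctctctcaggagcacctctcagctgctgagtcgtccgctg
Gm10175: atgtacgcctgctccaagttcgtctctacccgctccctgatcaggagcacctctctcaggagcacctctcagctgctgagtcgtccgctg
For Ndufs5 and its copy on chromosome 16 (42955631 to 42955949; 319 bases at 99.4% identity) 1 base differs.
Ndufs5: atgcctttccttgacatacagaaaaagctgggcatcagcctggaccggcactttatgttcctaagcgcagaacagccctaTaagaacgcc
BC002163: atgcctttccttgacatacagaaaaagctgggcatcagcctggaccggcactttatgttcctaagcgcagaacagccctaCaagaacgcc

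The last pair bears on a row of the deposited table. Ndufs5, an accessory subunit of complex I, was listed at 0 in both libraries, whereas a row named BC002163 stood at 87.4 and 105.6 FPKM. Both rows carried the same deposited position, chromosome 4, 123712710 to 123718186, where the annotation places Ndufs5, and not chromosome 16. BC002163 was picked after its value was seen. How shared reads were assigned is not stated in the labels, its part in these levels was not tested, and the values of members with copies are given as uncertain. Not all of them were low, since Uqcr11 stood at 160.3 and 139.5 FPKM and Atp5f1 at 86.2 and 122.2 FPKM. Over all measured genes the levels of the classes were close, with medians of 6.78 and 7.89 FPKM for 1052 genes with a copy and of 8.24 and 7.69 FPKM for 14647 genes without. Of the 12 such members with a measured level, 1 was higher (Ndufab1) and 1 lower (Atp5l). For Ndufab1 13.5% of the transcript was copied, counted on a GENCODE transcript of 3479 bp that may differ from the authors' model. For Atp5l 57.4% was, and its level rested on about 32 and 12 fragments, with an interval of the log2 ratio of -2.64 to -0.55. With a pseudocount of 1 FPKM it was -0.81, short of 2-fold. Ndufa12, just short of the threshold, had 71.0% copied. Without members that have copies and without the second forms, 72 genes remained, 1 was called (Ndufb2), and 94.4% lay within 1.5-fold. These exclusions take out all the other called members, and leaving out copies was chosen after seeing the data, so the low count is a description. Over all genes, with no such exclusion, 27.6% were called and 53.9% lay within 1.5-fold.

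Promoters were searched for motifs of factors known to act on respiratory chain genes, on both strands, in the 300 bases from 250 before to 50 after each start in the RefSeq table for mm10. It held 84 promoters of 78 members. GCATGCGC, a core of the NRF1 site, was found in 12 (14.3%), against 4.34% of 15704 promoters of measured genes. AAGATGGC, a YY1 motif, was found in 12 (14.3%), against 3.78%. CCGGAAG, a motif of ETS factors such as GABP, was found in 19 (22.6%), against 14.7%, and TATAAA in 8 (9.52%), against 8.998%. None of the 4 promoters of second forms in the table held the first 3 motifs, and 2 held TATAAA. They had a median of 8.5 CpG dinucleotides, against 20 for all member promoters. Of 6 promoters of common forms, with a median of 18 and a range of 5 to 32 CpG dinucleotides, 3 also held none of the first 3 motifs, namely those of Cox7a2, Cox7b and Ndufa4. Cox7b, with 5, had fewer CpG dinucleotides than 3 of the 4 second forms. A match is a description of letters and not of binding.

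The 250 bases before the start are shown for 1 pair in which only the second form was called, Cox7a1 and Cox7a2, and for Cox6a1, picked as the common form with the most motifs. Capitals mark a motif match. The stretch of Cox7a1 (chr7:30183921-30184170, plus strand) has 4 CpG dinucleotides, that of Cox7a2 (chr9:79759854-79760103, minus strand) has 14 and that of Cox6a1 (chr5:115348959-115349208, minus strand) has 26.
Cox7a1: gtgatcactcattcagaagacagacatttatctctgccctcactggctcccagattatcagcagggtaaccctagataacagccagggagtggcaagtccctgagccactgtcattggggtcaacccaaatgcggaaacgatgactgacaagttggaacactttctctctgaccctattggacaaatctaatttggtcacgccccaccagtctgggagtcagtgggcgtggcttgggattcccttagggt
Cox7a2: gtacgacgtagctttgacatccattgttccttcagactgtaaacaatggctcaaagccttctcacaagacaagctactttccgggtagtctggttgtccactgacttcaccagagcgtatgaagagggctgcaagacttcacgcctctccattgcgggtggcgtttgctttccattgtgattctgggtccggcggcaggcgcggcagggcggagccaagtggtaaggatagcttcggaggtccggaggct
Cox6a1: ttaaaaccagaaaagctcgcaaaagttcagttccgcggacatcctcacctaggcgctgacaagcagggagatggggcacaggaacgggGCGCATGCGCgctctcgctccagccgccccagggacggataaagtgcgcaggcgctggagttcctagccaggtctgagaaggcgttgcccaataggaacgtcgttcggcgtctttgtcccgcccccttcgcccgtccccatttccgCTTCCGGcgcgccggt
In Cox6a1 the first block of capitals holds the NRF1 motif on both strands, since it is its own reverse complement, and the second is the ETS motif read on the other strand. Of the factors named by these motifs, Nrf1 stood at 9.25 and 10.4 FPKM, Yy1 at 27.7 and 33.8 FPKM, and Gabpa at 5.81 and 9.42 FPKM. Gabpb1, the partner of Gabpa, was called higher at 24.8 and 51.3 FPKM, and of the oestrogen-related receptors Esrrb was called lower at 1.31 and 0.247 FPKM. Of 18 regulators, all measured, 1 was higher and 1 lower, with a median of 0.18. The coactivator gene Ppargc1a, known as a driver of mitochondrial biogenesis, stood at 1.17 and 0.665 FPKM.

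Transcript length moved with the ratio and differs between members and other genes. The 90 members had a median transcript length of 794.5 bp against 2676 bp over all genes. Over all genes the median log2 ratio was -0.35 up to 500 bp, -0.61 above that up to 800 bp, -0.08 up to 1500 bp, 0.02 up to 3000 bp and 0.15 for longer transcripts. The members gave -0.07, -0.04, 0.12, 0.22 and 0.80 in the same bins, the last from 3 genes. In the 2 shortest bins the members' medians were nearer to 0 than those of all genes. With each gene set against the median of its bin, the members' median became 0.31, the common forms' 0.50 and the second forms' 0.05, and Cox4i2 at -0.99 and Atp5l at -0.81 no longer reached 2-fold. Ndufa11, an accessory subunit of complex I at 45.3 and 61.5 FPKM, went from 0.44 to 1.05 and so passed it, which left 4 members higher and 1 lower. At a mean of 20 FPKM or more, the bins of all genes ran from -0.04 to 0.31, with -0.04 above 500 up to 800 bp. All common forms and Ndufa11 lie above that level, and centring on such genes alone was not run. The part of length in the results was not tested.

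Other assembly factors and the citric acid cycle genes were also mostly within 2-fold, where 27.6% of all genes were called. Of 33 assembly factors outside the rule 30 were measured, 1 was higher and none lower, with a median of 0.13. The exception was Atpaf1, which chaperones the F1 part, at 1.19 and 2.61 FPKM, with 36.2% of its transcript copied. Of 16 citric acid cycle genes none was called (median 0.05). The glycolysis genes had a median of 0.69 over 14 of 15 genes, 4 higher and 1 lower. That is 28.6% higher and 7.14% lower, against 7.09% and 20.5% of all genes. The phosphofructokinase gene Pfkl stood at 27.8 and 90.9 FPKM and the triosephosphate isomerase gene Tpi1 at 182.6 and 394.7 FPKM. Pgk1 (7.15 and 20.3 FPKM), Pgam1 (6.29 and 13.8 FPKM) and Ldhb (243.8 and 98.5 FPKM) have 43.1% to 76.8% of their transcripts copied. Gapdh, Pkm and Gpi1, not called and named after their values were seen, have 88.0%, 65.5% and 36.3% copied. The glycolysis median includes all of these. The 13 protein-coding genes of mitochondrial DNA had no row or no estimate under the symbols searched, so they could not be described.

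Among other large protein assemblies, 76 mitochondrial ribosomal protein genes had a median of 0.24 with 2 higher and none lower, and 38 proteasome genes a median of 0.28 with none called. The 77 cytosolic ribosomal protein genes had a median of 0.83 with 27 higher and 1 lower (35.1% and 1.30%). Of all genes 7.09% were higher and 20.5% lower. The ribosomal genes ranged down to 0.206 FPKM in the library labelled WT. Copied sequence was not summed up by family, so their values may be as uncertain as those of members with copies. Against these families, the respiratory chain median of 0.10 was the lowest, and these differences in median were not tested.

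Isoform shares were compared as well. All 11 members with 2 or more isoforms reached 5 FPKM in both libraries, and in none did an isoform's share shift by 25 percentage points or more, against 5.69% of 2495 genes. The largest shifts were 12.1 points in Cox6b2, 11.2 points in Atp5g1 and 9.43 points in Ndufs1. In the authors' deposited table, which compares these 2 libraries and not 2 genotypes, none of the 94 members had a q-value under 0.05. The smallest q-value was 0.586, for Cox7b2, which is below the minimum mean. The same count over all genes was not made here, so the members cannot be set against it.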

How the data were processed

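RNA from mTECs labelled WT and Aire-KO was sequenced, 1 library per genotype. The authors deposited FPKM values per gene (23997 rows) and per isoform (33295 rows), made with TopHat2 and Cuffdiff on mm10 per the submitters' processing notes. Tool versions, the annotation release, strand handling and treatment of reads that match several places were not given in the sources used here. The deposited p-value and q-value columns are quoted only as the authors' own. A total of 11 gene rows without an estimate, none of them a member, were treated as missing.

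Ratios were log2((Aire-KO FPKM + 0.1)/(WT FPKM + 0.1)), which understates changes of low genes, for genes averaging at least 0.5 FPKM, and were called at 2-fold. No test was possible with 1 library per genotype. Genes at exactly 0 are given as listed at 0, since the estimate may have failed. The members and lists were chosen with earlier results of these data known. All 94 members matched the RefSeq table of GRCm38.p6 (mm10), the source of coordinates and promoters. Named in full were all second forms with their common forms, all called members and the 5 most abundant. Genes outside the rule could be named when called, of which a few are given as examples, or when cytochrome c or a regulator. Others are stated as picked afterwards, except cell type markers used to check the labels.

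Depth was estimated from low values on whole steps of 1 fragment (189 and 457 values; 78.3% and 80.1% within 0.1 of a whole number; transcript length less 190 and 200 bp). The steps were fitted to the same values. A count of 0 allows up to 0.0350 and 0.0307 FPKM for 2000 bp (3 counts). Exact conditional 95% intervals of the ratio without pseudocount, for transcripts of 500 bp or more, cover counting error only. Copies were found with BLAST+ 2.17.0 against GENCODE M21 transcripts. Python 3.11.15, pandas 2.3.3, numpy 2.4.6 and scipy 1.17.1 were used, and the calculations were tested on simulated data. Alternatives were other pseudocounts, minimums, scalings, length and row filters, isoform sums, a 1.5-fold rule and, chosen after seeing the data, members without copies and centring by length.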

Additional observations from a re-analysis of the deposited data

How the results depend on the processing

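No paired analysis was possible because each genotype has 1 library. The number of members called was 6 and lay between 4 and 7 under other pseudocounts, minimums, scalings, row and length filters, isoform sums, without members that have copies and centred by length bin. A 1.5-fold rule gave 10 members, 6 higher and 4 lower, where 46.1% of all genes passed. The members' median log2 ratio of 0.10 stayed within 0.02 to 0.12 except for 0.31 when centred on the median of all genes of the same length bin. That centring, chosen after seeing the data, turned the common forms' median from -0.04 to 0.50 and the second forms' median from -0.43 to 0.050. Under it Ndufa11 was called at 1.05. The bin medians were taken over genes of all levels. Above 500 up to 800 bp the median was -0.61, but -0.04 at a mean of 20 FPKM or more. All common forms and Ndufa11 lie above 20 FPKM, and centring on such genes alone was not run. Limiting to transcripts of 500 bp or more left 4 second forms, with a median of -0.17. Of the called genes, Cox7a1, Ndufab1 and Ndufb2 were past 2-fold under all 10 settings that gave them a value. Cox4i2 (-1.68 to -0.99) and Ndufa4l2 (0.93 to 1.18) were past it in 10 of 11, and Atp5l (-1.54 to -0.81) in 7 of 9. These tallies overstate the check, since minimums, filters and exclusions leave a gene's own ratio unchanged or remove the gene. Limiting to 500 bp or more removed Cox7a1 and Ndufb2, and leaving out members with copies removed Ndufab1 and Atp5l. The cause of these differences was not tested. Depth limits Atp5l most among the called genes with an interval, at about 32 and 12 fragments.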
